A study of Mus musculus with 15 samples.

Results

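Cyfip1, Myo10, Ajuba, Laptm4b, Mboat2, Acvr1, Arhgap4, Amot, Adam12 and Anks1b encode proteins of the cytoskeleton, of cell contacts and of membranes. They were examined line by line in mouse T cell leukemia lines that differ in the transcription factor gene Lef1. The 10 genes, out of 12545 listed, were chosen by name because earlier results of these data had set them apart between the genotypes, so their difference between genotypes is given here as a description and carries no test. In mean level on a log2 scale, 7 of them were higher and 3 lower in the lines with the Lef1 deletion.

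RNA was sequenced from 15 untreated cell lines, 1 library per line, each derived from a leukemia of the thymus in FVB/NJ mice. All 15 lines lack E2a, which encodes the E protein transcription factors E12 and E47. The 7 E2a-/- lines carry that deletion alone, and the 8 DKO lines have the genotype E2a-/-LefF/F LckCre+, in which Cre driven by the Lck promoter deletes the floxed DNA binding domain of Lef1 in developing T cells. Each line descends from 1 leukemia, the age of the mice is not in the labels, and a p-value over lines measures the spread between leukemias of a genotype. The deletion removes part of the gene, so the level of Lef1 RNA is a partial check of the label. Lef1 stood at 103 to 210 CPM (reads per 1000000 reads assigned to genes) in the DKO lines and at 668 to 1558 CPM in 6 of the E2a-/- lines. The library labelled SKO132, an E2a-/- line, had 59.0 CPM of Lef1, below every DKO line, so this check does not bear out its label. Notch1, the receptor that drives many T cell leukemias, also set SKO132 apart, at 31.3 CPM against 830 CPM or more in every other line. Values of the E2a-/- lines are therefore given with and without SKO132.

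Reads assigned to genes numbered 4847970 (DKO79.9) to 21377352 in the DKO lines and 14477802 to 21681586 in the E2a-/- lines, so 3 reads were worth 0.138 to 0.618 CPM. All 10 T cell markers examined were listed, with a summed level of 3001 to 5055 CPM in DKO, 3612 to 4649 CPM in the other 6 E2a-/- lines and 2316 CPM in SKO132. In SKO132, Cd3d (47.0 CPM), Cd3e (184 CPM), Cd3g (142 CPM), Lck (320 CPM) and Ptcra (0.165 CPM) were below every other line. Cd247, Thy1, Cd5, Bcl11b and Gata3 were not. Of the markers of other cells of the thymus, 3 of 9 for fibroblasts were listed (Col1a2, Pdgfra and Pdgfrb), summing to 93.5 to 1113 CPM in DKO, 56.3 to 580.2 CPM in the other 6 E2a-/- lines and 188 CPM in SKO132, while the defining markers Col1a1, Col3a1 and Dcn were not among the listed genes. Epithelial markers (2 of 7 listed) summed to at most 8.24 CPM in any line, myeloid markers (2 of 10) to 5.48 to 13.98 CPM, and the 1 B cell marker listed of 7 to at most 5.77 CPM. Pecam1, the 1 endothelial marker listed of 6, stood at 44.9 to 157.4 CPM, and none of 6 erythroid markers was listed. Their part in the members' levels was not tested. In bulk RNA, fewer cells that express a gene and less RNA per cell cannot be told apart.

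Cells shape their surface with actin. Branched actin sheets are built when the WAVE complex, switched on by the GTPase Rac, activates the Arp2/3 nucleator, while parallel bundles form filopodia. Junction scaffolds pass information on cell contact to the Hippo pathway, whose kinases restrain the coactivators YAP and TAZ, and BMP receptors signal through SMAD proteins. LEF1 binds DNA through its HMG box and regulates transcription together with beta-catenin or corepressors, and E proteins bind E-box sequences.

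**Figure D1:**
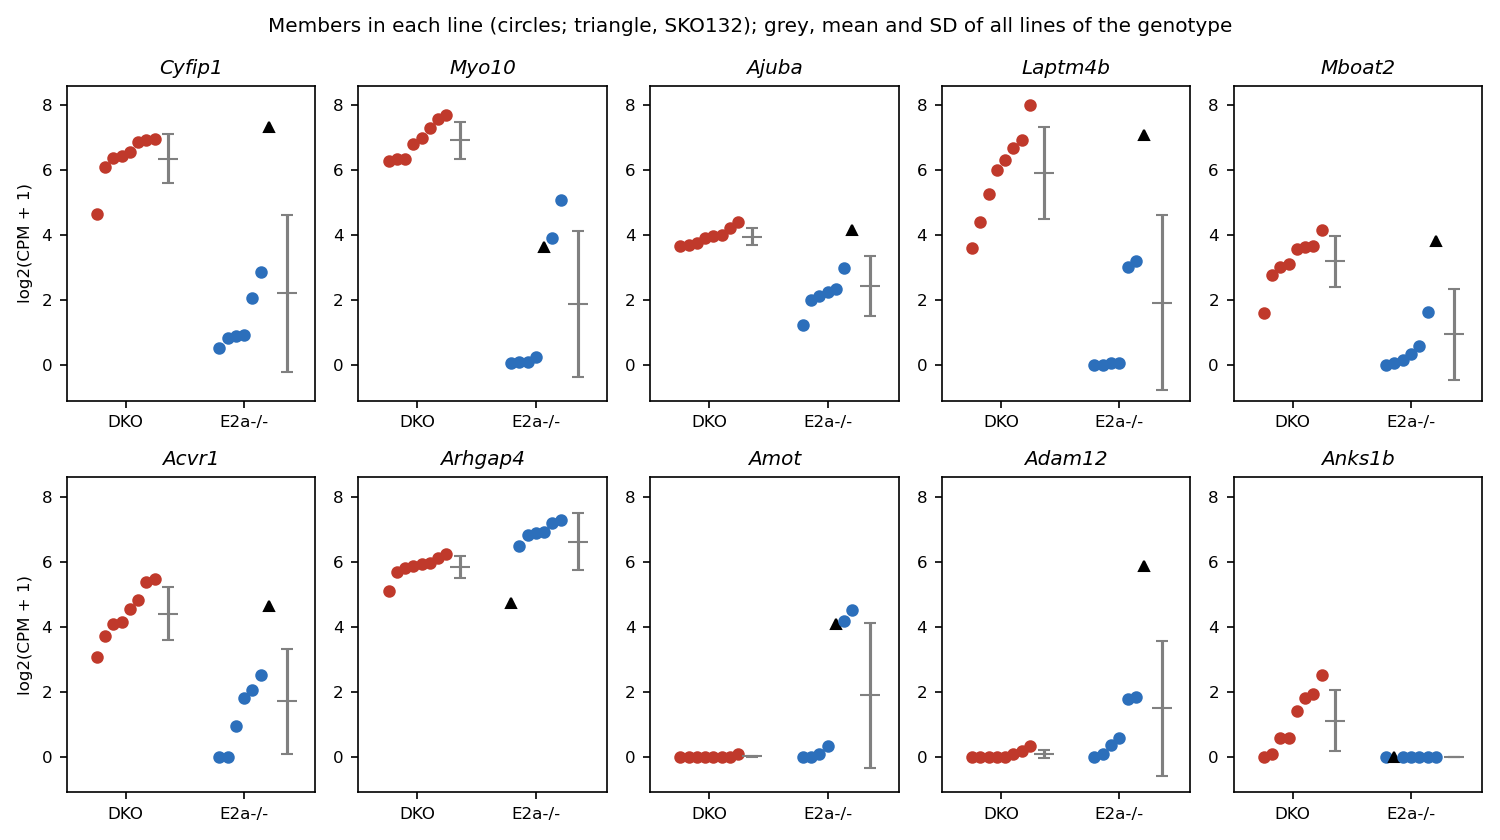
Level of each of the 10 genes in the 15 lines, as log2(CPM + 1), with a circle for each line, a black triangle for the library labelled SKO132, and grey marks for the mean and SD of each genotype (8 DKO in red, 7 E2a-/- in blue). SKO132 lies apart from its genotype in most panels, and for Cyfip1 it stands at 161 CPM against at most 6.31 CPM in the other E2a-/- lines.

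The actin regulators Cyfip1 and Myo10 had the highest differences between the genotypes on the log2(CPM + 1) scale, an order that depends on the scale (with a pseudocount of 0.1, Myo10 was at 6.53, Laptm4b at 5.75 and Cyfip1 at 4.83). Cyfip1 (ENSMUSG00000030447, chromosome 7, 63097115 to 63186070, plus strand, in the positions that the table lists) encodes a subunit of the WAVE complex that binds Rac and also partners the RNA-binding protein FMRP. Its lowest, median and highest levels were 24.1, 90.0 and 124 CPM in the DKO lines and 0.435, 0.891 and 6.31 CPM in the 6 E2a-/- lines other than SKO132. SKO132 had 161 CPM, above every DKO line. The lowest DKO line, DKO79.9, stood 3.82 times above the highest of those 6 E2a-/- lines, and 4 of the 6 were under 1 CPM. The means were 89.6 ± 33.4 CPM in DKO (SD, n = 8) and 24.8 ± 60.1 CPM in E2a-/- (SD, n = 7), or 2.09 ± 2.30 CPM (n = 6) without SKO132.

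Myo10 (ENSMUSG00000022272, chromosome 15, 25552280 to 25743428, plus strand) encodes an unconventional myosin that travels to the tips of filopodia. It had 77.9, 119 and 209 CPM as lowest, median and highest level in DKO and 0.0474, 0.127 and 33.3 CPM in the other 6 E2a-/- lines. SKO132 had 11.6 CPM of Myo10 and so sat with its own genotype. The E2a-/- lines were not uniform: 4 of the 7 were under 1 CPM, and SKO132, SKO115.2 (14.1 CPM) and SKO163.5 (33.3 CPM) were well above that. The means were 129 ± 51.4 CPM in DKO (n = 8) and 8.49 ± 12.5 CPM in E2a-/- (n = 7), or 7.97 ± 13.6 CPM without SKO132 (n = 6), and Myo10 was the 1 member whose 8 DKO and 7 E2a-/- lines did not overlap. On the log2(CPM + 1) scale, which understates changes of low genes, the difference of DKO minus E2a-/- was 4.15 for Cyfip1 and 5.05 for Myo10, or 5.01 and 5.34 without SKO132.

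Ajuba (ENSMUSG00000022178, chromosome 14, 55186309 to 55196253, minus strand) encodes a LIM domain protein of cell junctions that inhibits the Hippo kinases LATS1 and LATS2. It was narrowly spread in DKO, with 11.7, 14.4 and 20.1 CPM as lowest, median and highest level, against 1.35, 3.58 and 7.03 CPM in the other 6 E2a-/- lines. SKO132 had 16.8 CPM, inside the DKO range. No line lacked Ajuba RNA, so its pattern was one of degree, with means of 14.8 ± 2.92 CPM in DKO (n = 8) and 5.63 ± 5.20 CPM in E2a-/- (n = 7), or 3.77 ± 1.86 CPM without SKO132 (n = 6).

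Of the membrane proteins, Laptm4b and Mboat2 were higher in DKO. Laptm4b (ENSMUSG00000022257, chromosome 15, 34167781 to 34214050, plus strand) encodes a protein of late endosomes and lysosomes that spans the membrane several times. Its level varied widely in DKO, at 11.3, 71.1 and 256 CPM as lowest, median and highest, and was 0, 0.0496 and 8.23 CPM in the other 6 E2a-/- lines. SKO132 had 135 CPM. Of those 6 lines, SKO156.6 and SKO95 had no read of Laptm4b, SKO115.2 and SKO186.5 were under 1 CPM, and SKO137.1 and SKO163.5 had 7.22 and 8.23 CPM. The lowest DKO line was 1.38 times the highest of the 6. The means were 86.4 ± 78.5 CPM (n = 8) and 21.6 ± 50.4 CPM (n = 7), or 2.59 ± 3.99 CPM without SKO132 (n = 6).

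Mboat2 (ENSMUSG00000020646, chromosome 12, 25516464 to 25645166, plus strand) encodes a lysophospholipid acyltransferase, which attaches fatty acids to membrane phospholipids. In DKO it had 2.07, 9.22 and 17.1 CPM as lowest, median and highest level, and in the other 6 E2a-/- lines 0, 0.192 and 2.12 CPM. SKO132 had 13.2 CPM. The genotypes overlapped here by a single pair of lines even without SKO132, since DKO548 had 2.07 CPM and SKO115.2 2.12 CPM. The means were 9.22 ± 4.54 CPM in DKO (n = 8) and 2.32 ± 4.85 CPM in E2a-/- (n = 7), or 0.510 ± 0.812 CPM without SKO132 (n = 6).

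Acvr1 (ENSMUSG00000026836, chromosome 2, 58241055 to 58419568, minus strand) encodes ALK2, a type I receptor for bone morphogenetic proteins. Its lowest, median and highest levels were 7.34, 19.6 and 43.2 CPM in DKO and 0, 1.73 and 4.76 CPM in the other 6 E2a-/- lines, with 23.7 CPM in SKO132. SKO137.1 and SKO95 had no read, and every DKO line was above every E2a-/- line but SKO132. The means were 23.3 ± 13.1 CPM in DKO (n = 8) and 5.02 ± 8.43 CPM in E2a-/- (n = 7), or 1.90 ± 1.92 CPM without SKO132 (n = 6).

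Anks1b (ENSMUSG00000058589, chromosome 10, 89336417 to 90435730, plus strand) encodes a scaffold with ankyrin repeats and SAM domains that is best known from synapses. It was low in every line. No read was seen in any of the 7 E2a-/- lines, SKO132 included, where 3 reads, taken as the limit that a count of 0 allows, would be 0.138 to 0.207 CPM. Its DKO levels ran from 0 through a median of 1.07 to 4.69 CPM, with 1 read in DKO548 (0.0575 CPM) and none in DKO79.9. DKO79.9 was the shallowest library, in which 3 reads would be 0.618 CPM, so its 0 reads do not separate it from a level like that of DKO241 (0.478 CPM).

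Arhgap4, Amot and Adam12 were the 3 members lower in DKO. Arhgap4 (ENSMUSG00000031389, chromosome X, 71136781 to 71167209, minus strand) encodes a protein known from blood cells and was well expressed in every line. It had 33.6, 59.3 and 74.5 CPM as lowest, median and highest level in DKO and 89.0, 119 and 155 CPM in the other 6 E2a-/- lines. SKO132 had 25.8 CPM, below every DKO line. The means were 57.9 ± 12.4 CPM in DKO (n = 8) and 110 ± 43.1 CPM in E2a-/- (n = 7), or 124 ± 24.0 CPM without SKO132 (n = 6). In the listed positions Arhgap4 overlaps L1cam by 4.66 kb and Naa10 by 4.997 kb on the same strand, so the assignment of reads in those stretches is uncertain.

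Amot (ENSMUSG00000041688, chromosome X, 141880968 to 141939724, minus strand) encodes angiomotin, a junction scaffold that binds YAP. It was absent or nearly so in DKO, with no read in 7 lines and 1 read in DKOTu3 (0.0526 CPM). In E2a-/- it was present in some lines only, at 17.3 CPM in SKO156.6, 21.9 CPM in SKO186.5 and 16.1 CPM in SKO132, and at most 0.269 CPM in the other 4. The mean of 7.93 ± 9.96 CPM in E2a-/- (n = 7), or 6.58 ± 10.2 CPM without SKO132 (n = 6), therefore describes no single line.

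Adam12 (ENSMUSG00000054555, chromosome 7, 141074882 to 141423829, minus strand) encodes a membrane-anchored metalloprotease with a disintegrin domain. In DKO it did not exceed 0.255 CPM, and 5 of the 8 lines had no read. SKO132 had 58.2 CPM, while SKO186.5 and SKO137.1 had 2.56 and 2.43 CPM and the other 4 E2a-/- lines were under 1 CPM. The mean of 9.14 ± 21.7 CPM in E2a-/- (n = 7) fell to 0.966 ± 1.20 CPM without SKO132 (n = 6). The log2(CPM + 1) difference of DKO minus E2a-/- was -0.78 for Arhgap4, -1.88 for Amot and -1.43 for Adam12, and -1.09, -1.51 and -0.69 without SKO132.

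The log2(CPM + 1) differences of the remaining members, again DKO minus E2a-/-, were 1.51 for Ajuba, 3.98 for Laptm4b, 2.25 for Mboat2, 2.70 for Acvr1 and 1.11 for Anks1b. Without SKO132 they were 1.80 for Ajuba, 4.85 for Laptm4b, 2.73 for Mboat2 and 3.18 for Acvr1. Levels of different genes can be set side by side only per length, here as CPM per kb of exons. On that scale the order of mean levels in DKO was Laptm4b (44.6), Myo10 (12.8), Cyfip1 (7.50), Arhgap4 (7.14), Acvr1 (4.82), Ajuba (4.06), Mboat2 (0.964) and Anks1b (0.109), with Adam12 and Amot under these. In the 6 E2a-/- lines other than SKO132, Arhgap4 led at 15.3 CPM per kb and no other member exceeded 1.34 CPM per kb.

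**Figure D2:**
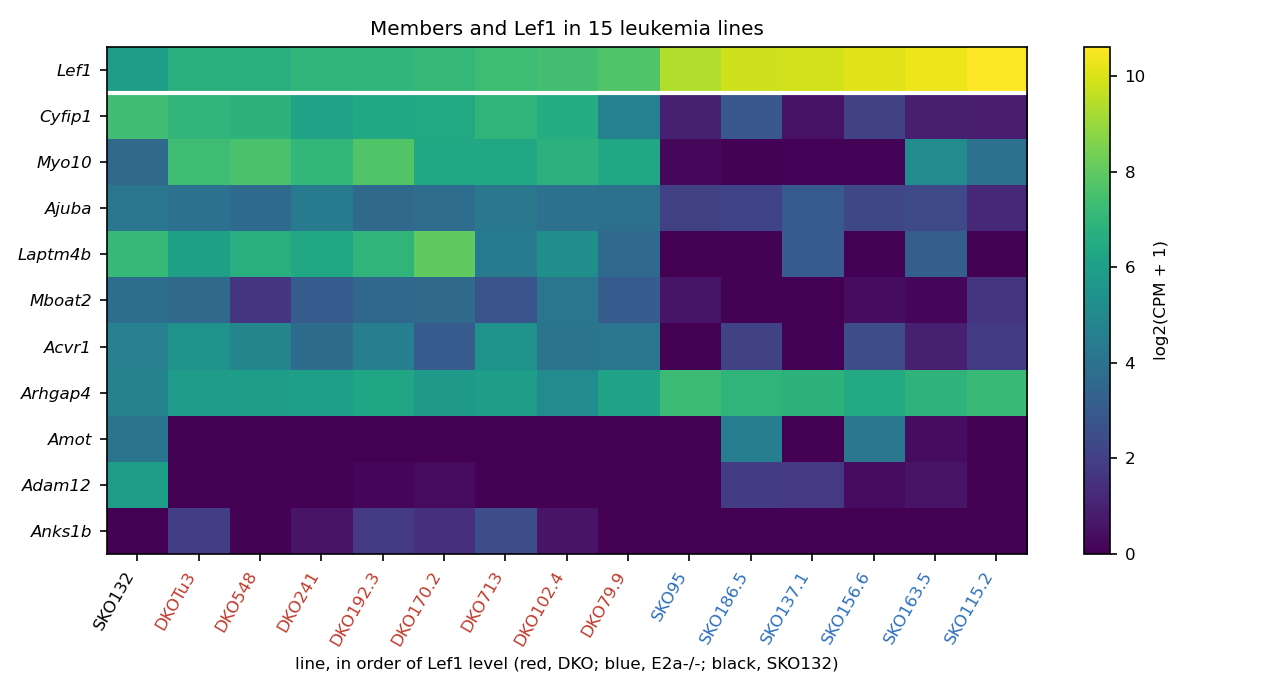
Heat map of log2(CPM + 1) for Lef1 (top row) and the 10 genes in each of the 15 lines (columns, in order of rising Lef1, labelled in red for DKO, blue for E2a-/- and black for SKO132). The DKO columns share high Cyfip1, Myo10, Laptm4b and Acvr1, and the column of SKO132 resembles them in Cyfip1 (161 CPM), Laptm4b (135 CPM) and Acvr1 (23.7 CPM) and differs in Myo10 (11.6 CPM) and Adam12 (58.2 CPM).

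Promoters were examined for the letters that TCF/LEF factors and E proteins bind, since the lines differ in Lef1 and all lack E2a. RefSeq promoter windows of 300 bases (250 before the start and 50 after it, GRCm38.p6 reference sequence) were matched for 7 of the 10 members, 12 windows in all, and Cyfip1, Laptm4b and Adam12 had no entry. The TCF/LEF letters searched were CTTTGAA and its variant CTTTGAT as well as CTTTGTA and its variant CTTTGTT, on either strand. They stood in 2 of the 12 windows (16.7%), those of Ajuba and Amot, against 16.9% of all 32851 windows. The E-box letters CAGCTG or the variant CAGGTG, on either strand, stood in 2 of 12 (16.7%), those of Ajuba and Arhgap4, against 32.9% of all windows. Anks1b and Myo10 each have more than 1 window and no match, so the shares per window lean on these genes. Counted per member, 2 of the 7 held the first set of letters and 2 held the second. No share per gene was computed for all promoters, so nothing is read from these shares. The 3 windows that held such letters are given as their 250 bases before the start, 5′ to 3′ on the strand of the gene, with the matched letters in capitals. They lie at chr14:54577662-54577911 for Ajuba, chrX:145487640-145487889 for Amot and chrX:73911299-73911548 for Arhgap4, each on the minus strand.
Ajuba: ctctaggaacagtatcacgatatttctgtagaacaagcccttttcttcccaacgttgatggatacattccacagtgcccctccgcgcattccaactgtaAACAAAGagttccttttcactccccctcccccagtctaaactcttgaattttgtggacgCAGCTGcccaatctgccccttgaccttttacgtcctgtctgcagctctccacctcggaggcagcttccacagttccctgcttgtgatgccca
Amot: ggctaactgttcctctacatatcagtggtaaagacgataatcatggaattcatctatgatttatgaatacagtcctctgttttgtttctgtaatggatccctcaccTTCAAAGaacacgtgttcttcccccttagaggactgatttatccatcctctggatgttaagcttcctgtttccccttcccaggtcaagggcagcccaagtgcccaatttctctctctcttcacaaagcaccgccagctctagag
Arhgap4: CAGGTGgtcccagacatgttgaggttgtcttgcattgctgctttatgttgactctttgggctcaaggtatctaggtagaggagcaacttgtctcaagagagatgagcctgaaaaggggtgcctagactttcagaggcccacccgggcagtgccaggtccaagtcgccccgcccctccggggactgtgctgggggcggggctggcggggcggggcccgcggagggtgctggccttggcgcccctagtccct
Ajuba carries 1 match of each kind, a TCF/LEF match read on the opposite strand as CTTTGTT and the E-box CAGCTG. Amot, the gene without reads in 7 DKO lines, carries 1 TCF/LEF match, which reads CTTTGAA on the opposite strand. A match of letters is a description of the reference sequence, and binding was not measured.

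An on-off pattern was looked for by counting a gene as off under 1 CPM and on at 5 CPM or more. No member was off in every line of 1 genotype and on in 50% or more of the lines of the other, with or without SKO132, a pattern that 0.0558% of all genes had over the 15 lines and 0.199% had without SKO132. The nearest to it from one side were Amot and Adam12, off in all 8 DKO lines, with Amot on in 3 and Adam12 on in 1 of the 7 E2a-/- lines. From the other side, Cyfip1, Myo10, Ajuba, Laptm4b and Acvr1 were on in all 8 DKO lines but were not off in every E2a-/- line. Of the 6 E2a-/- lines other than SKO132, 4 were off for Cyfip1, 4 for Myo10, 4 for Laptm4b, 5 for Mboat2, 3 for Acvr1 and 0 for Ajuba. Counted over the 7 members higher in DKO, each DKO line had 5 or 6 of them on. SKO132 had 6 on, and the other E2a-/- lines had 0 to 2 on. Anks1b reached 5 CPM in no line, so 6 was the most that a line could have. The 7 were taken for being higher in DKO and no like count was made over all genes, so nothing is read from these counts. SKO95 was the E2a-/- line with the most of these 7 genes off (6), followed by SKO137.1 (5).

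Over all 15 lines the genotypes did not overlap for 1 of the 10 members, Myo10, against 0.175% of all genes. With SKO132 left out they did not overlap for 6 members, against 0.638% of all genes. These were Cyfip1, Myo10, Ajuba, Laptm4b and Acvr1, higher in DKO (0.279% of all genes), and Arhgap4, lower in DKO (0.359% of all genes). The members were chosen on this contrast, so nothing is read from these shares. Leaving out DKO79.9 in place of SKO132 made it 2 members, where 65 of the 12545 genes did not overlap. The added member was Anks1b, which then separated the genotypes by the 1 read of DKO548 against 0. Leaving out any other single line left it at 1.

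SKO132 sat on the DKO side for 5 of the 6 genes that separated the genotypes without it, and with the E2a-/- lines for Myo10. Across the 10 members it lay nearer the DKO mean for Cyfip1, Ajuba, Laptm4b, Mboat2, Acvr1 and Arhgap4, while for Myo10, Amot, Adam12 and Anks1b it lay nearer that of the other E2a-/- lines. For Adam12 it was far from both, 5.12 log2 units above the mean of the other E2a-/- lines and 5.81 above that of DKO. It lay inside the DKO range and outside that of the other E2a-/- lines for 4 members (Ajuba, Laptm4b, Mboat2 and Acvr1), which 21.6% of all genes did. Among the 80 genes of the whole table that separated the genotypes without SKO132, it sat with DKO for 58, with the E2a-/- lines for 20 and between them for 2. A line that is left out is bound to sit with the other genotype for the genes that its removal adds. The same count was 43 of 65 genes (66.2%) for DKO79.9, 29 of 51 (56.9%) for SKO156.6 and 4.35% to 50% of the genes for each of the other 12 lines, against 72.5% for SKO132. These shares follow from how many genes each removal adds, so nothing is read from their order.

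Whether a member followed Lef1 among lines of 1 genotype does not use the contrast by which it was chosen, and this was tested with limma on log2(CPM + 1), with a slope on log2 Lef1 in each genotype and adjusted p-values over all genes. Within the DKO lines, where Lef1 spans 103 to 210 CPM, no member had an adjusted p under 0.01, nor did any gene of the table (0% of all genes, and 7.99% at an unadjusted p under 0.05). By genotype these lines have lost the DNA binding domain of Lef1, so their Lef1 RNA is not a level of working LEF1 protein. A slope on it cannot show whether a member follows that protein. The steepest slopes were those of Laptm4b, -2.87 ± 1.38 (SE) per log2 unit of Lef1 with an adjusted p of 0.627, and Cyfip1, -1.42 ± 0.80 with an adjusted p of 0.638. The residual variance is shared with the E2a-/- lines, SKO132 included, which were more spread. The log2 SD of Laptm4b was 1.42 in DKO and 2.70 in E2a-/-, and that of Cyfip1 0.76 and 2.41. The SE and p therefore do not measure the spread of the DKO lines alone, for which no separate fit was run. For Cyfip1 the slope rested on DKO79.9, which had the highest Lef1 and the lowest Cyfip1 of the DKO lines, and without it was -0.15 ± 1.03 (limma, adjusted p = 1). The slope of Laptm4b was -2.10 ± 1.98 without DKO79.9.

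Among the 6 E2a-/- lines other than SKO132, where Lef1 spans 668 to 1558 CPM, 0 of the 10 members passed the adjusted threshold, against 0.00797% of all genes. Myo10 had the steepest slope, 4.09 ± 1.07 (SE) per log2 unit, with an unadjusted limma p of 0.00231 and an adjusted p of 0.135. The fit shares a residual variance between the genotypes, and Myo10 was far less spread in DKO. Its SD on the log2 scale was 0.57 in DKO and 2.24 in the 7 E2a-/- lines. The SE and p therefore do not measure the spread of the 6 lines alone, for which no separate fit was run. The direction was positive: the 2 lines with the most Lef1, SKO115.2 (1558 CPM) and SKO163.5 (1277 CPM), were the 2 with the most Myo10. The mean of Myo10 was, in contrast, higher in the DKO lines, which have less Lef1. At an unadjusted p under 0.05, a level that 10.3% of all genes reached in these lines, Myo10 was the 1 member. With SKO132 included the slope of Myo10 was -0.23 ± 0.39, so its sign rested on leaving out that line. The other slopes in the E2a-/- lines with SKO132 are given as a description: -1.39 for Cyfip1, -1.35 for Laptm4b, -1.20 for Adam12, -0.73 for Mboat2, -0.70 for Acvr1, -0.61 for Amot, -0.49 for Ajuba and 0.50 for Arhgap4. Without SKO132 they were -0.32 for Cyfip1, 0.60 for Laptm4b, -0.41 for Adam12 and 0.73 for Mboat2. For Acvr1, Amot, Ajuba and Arhgap4 they were 1.30, -0.41, -0.56 and -0.11. The signs for Laptm4b, Mboat2, Acvr1 and Arhgap4 thus rested on SKO132, while the slopes of Ajuba and Amot changed little. In the fit with SKO132 1.46% of all genes passed the adjusted threshold and 17.4% had an unadjusted p under 0.05.

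**Figure D3:**
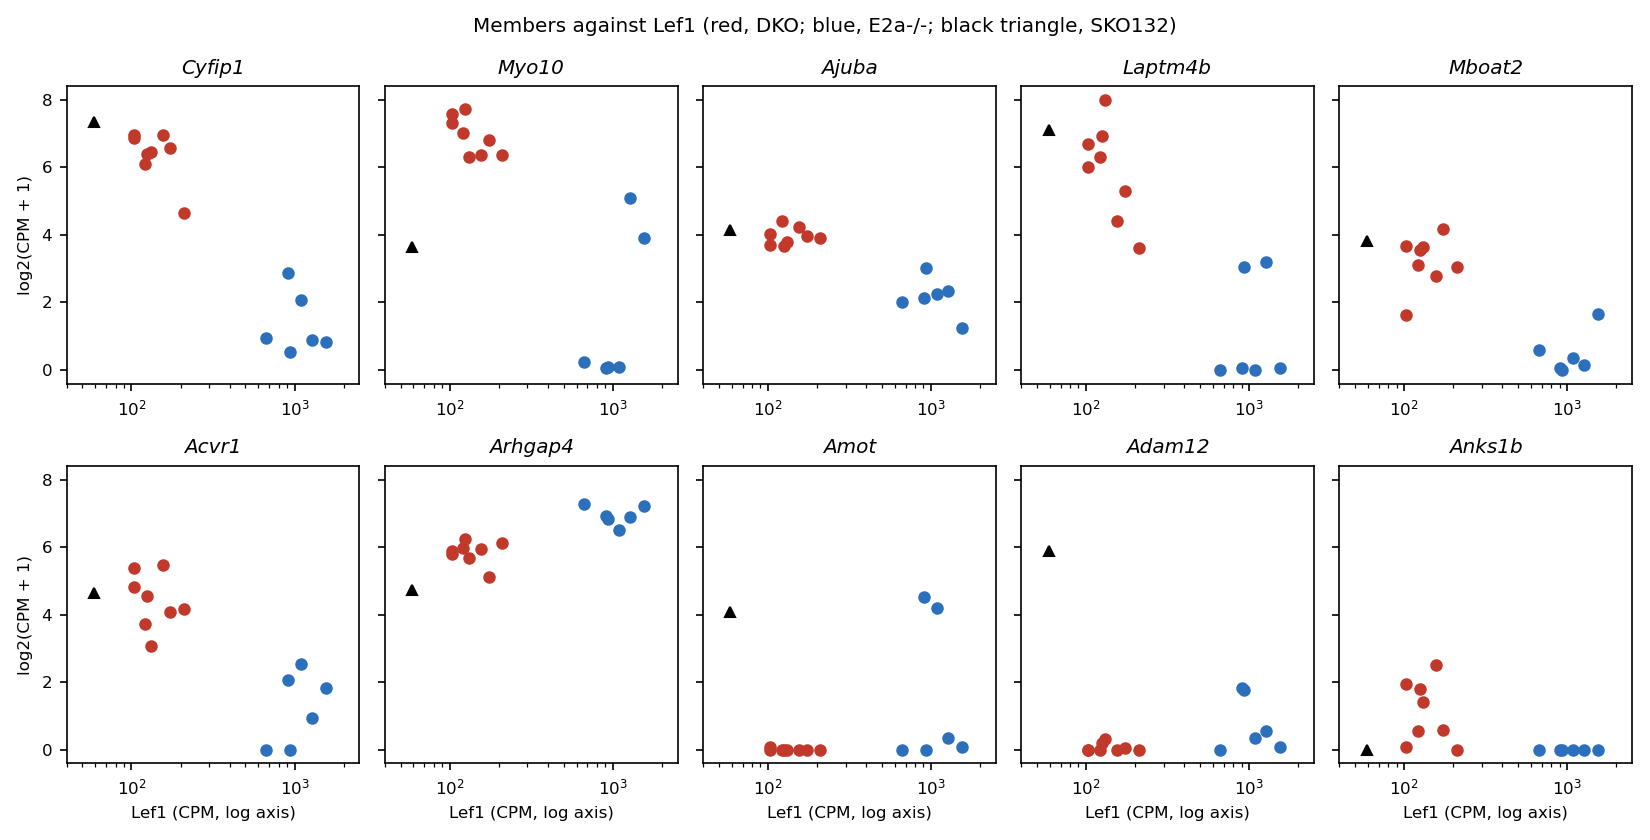
Level of each member, as log2(CPM + 1), against that of Lef1 in CPM on a log axis, with a point for each of the 15 lines (DKO red, E2a-/- blue, SKO132 a black triangle). The point of SKO132 lies at the lowest Lef1 (59.0 CPM), and among the other 6 E2a-/- lines the slope of Myo10 on Lef1 is 4.09 (SE 1.07, limma adjusted p = 0.135). The SE rests on a residual variance shared by both genotypes.

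Amot and Arhgap4 lie on the X chromosome, and the lines differed in their sex chromosome transcripts. Xist was at 1793 CPM or more in 2 DKO and 4 E2a-/- lines. The summed level of 4 Y-linked genes was 107 CPM or more in 6 DKO and 2 E2a-/- lines, and SKO132 had neither (Xist 1.21 CPM, Y-linked sum 1.71 CPM). Arhgap4 ran from 60.5 to 68.8 CPM in the Xist-expressing DKO lines and from 33.6 to 74.5 CPM in those with Y-linked transcripts. In E2a-/- it ran from 89.0 to 121 CPM and from 147 to 155 CPM in the same order, so in lines of each kind it was lower in DKO. Amot was at 17.3 and 21.9 CPM in 2 of the 4 Xist-expressing E2a-/- lines and at most 0.269 CPM in the other 2. The part of the sex chromosomes in the levels of both genes was not tested.

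Genes related to the members by complex, pathway or family were examined in 9 lists, which played no part in choosing the members. The lists were drawn up with earlier results of these data known, so their shares are given as a description. Of 241 such genes, 184 were listed, and 0 of them differed between the genotypes at an adjusted p under 0.01 (limma, Benjamini-Hochberg over all genes), a level that 0.0478% of all genes reached. At an unadjusted p under 0.05, 31 of the 184 differed (16.8%), 14 higher and 17 lower in DKO, against 10.2% of all genes (4.33% higher and 5.83% lower). Their median log2 difference was -0.01, and that of all genes -0.02. On reads recovered from the CPM, the edgeR likelihood ratio test called 1 of them (Cd2, against 0.67% of all genes), DESeq2 called 3 (Cd2, Itgae and Adamts10, against 1.41%) and the edgeR quasi-likelihood test called 0 (against 0.00797%). The values in the next paragraphs, for the genes with the smallest p of each list, are log2(CPM + 1) differences of DKO minus E2a-/- and none had an adjusted p under 0.01.

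In the list of the WAVE complex and Rac, 26 genes were listed and 6 had an unadjusted p under 0.05, 4 higher and 2 lower in DKO. Cyfip2, the paralog of Cyfip1 in the WAVE complex, had like means in both genotypes, 181 ± 45.0 CPM in DKO (n = 8) and 184 ± 31.2 CPM in E2a-/- (n = 7), a difference of -0.05 ± 0.15 (SE) with a limma adjusted p of 0.931. Per kb of exons Cyfip2 stood at 25.4 CPM in DKO, above the 7.50 CPM of Cyfip1. Wasf1, which encodes WAVE1, had a difference of 1.61 ± 0.57, with 10.5 to 22.1 CPM in DKO, 0.104 to 13.2 CPM in the other 6 E2a-/- lines and 29.8 CPM in SKO132. Was, which encodes the Wiskott-Aldrich syndrome protein, had a difference of -0.32 ± 0.12, and the Arp2/3 subunit gene Arpc1a one of 0.28 ± 0.10.

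Of 21 myosin and filopodia genes, 2 had an unadjusted p under 0.05, with differences of 1.64 ± 0.76 (SE) for Myo6, the myosin that walks toward the minus end of actin, and -1.03 ± 0.43 for Myo5b. Myo6 spanned 0.0935 to 49.0 CPM in DKO, a wide range relative to its mean of 9.86 CPM.

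The Hippo pathway list, with the angiomotins and Ajuba's LIM relatives, had 24 listed genes and 3 at an unadjusted p under 0.05, 2 higher and 1 lower in DKO. Amotl1, a paralog of Amot, had 170 ± 91.0 CPM in DKO (n = 8) and 68.7 ± 65.8 CPM in E2a-/- (n = 7), a difference of 1.82 ± 0.55 (SE) with a limma adjusted p of 0.245, opposite in direction to Amot. Its 8 DKO lines (85.1 to 376 CPM) overlapped the E2a-/- lines (11.8 to 172 CPM). Vgll4, a cofactor that competes with YAP for TEAD proteins, had a difference of -0.34 ± 0.13. Tead4, one of those TEAD factors, had one of 0.58 ± 0.24 at no more than 2.42 CPM in any line. Limd1, which like Ajuba encodes a LIM protein that binds LATS kinases, was at 83.5 ± 19.9 CPM in DKO and 92.6 ± 10.1 CPM in E2a-/-.

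Of the 27 genes of the BMP, activin and TGF-beta list, 4 had an unadjusted p under 0.05, 1 higher and 3 lower in DKO. Bambi, a decoy receptor of the pathway, had a difference of 1.30 ± 0.46 (SE), the ligand gene Tgfb3 one of -1.63 ± 0.61 and Id2, a target of BMP signals and an inhibitor of E proteins, one of -1.34 ± 0.59. Id2 stood at 44.1 to 83.5 CPM in the other 6 E2a-/- lines and 2.37 to 44.0 CPM in DKO, with 5.07 CPM in SKO132. Smad1, a SMAD that ALK2 phosphorylates, ranged from 0 to 33.4 CPM in DKO and from 3.11 to 39.7 CPM in E2a-/-.

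Of the lists of membrane proteins, 14 genes of the LAPTM and lysosomal list were listed, and Nedd4, a ubiquitin ligase (-2.03 ± 0.80, SE), and Scarb2 (-0.39 ± 0.16), a lysosomal receptor, had an unadjusted p under 0.05, both lower in DKO. Laptm4a, the paralog of Laptm4b, was at 78.2 ± 12.2 CPM in DKO (n = 8) and 76.2 ± 7.26 CPM in E2a-/- (n = 7). Per kb of exons Laptm4a and Laptm4b had like mean levels in DKO, at 44.1 and 44.6 CPM. Among 16 acyltransferases, 5 had an unadjusted p under 0.05, 2 higher and 3 lower in DKO, led by Agpat2 (-0.74 ± 0.22), Lpcat4 (-0.71 ± 0.28) and Lclat1 (0.50 ± 0.21). Mboat1, the nearest relative of Mboat2, was at 40.1 ± 20.6 CPM in DKO and 32.0 ± 12.9 CPM in E2a-/-.

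Of 31 adhesion receptors and linkers, 7 had an unadjusted p under 0.05, 4 higher and 3 lower in DKO. Vcl, which encodes the actin linker vinculin, had a difference of 0.78 ± 0.30 (SE), the integrin beta2 gene Itgb2 one of -1.01 ± 0.41 and Cd2, an adhesion molecule of T cells, one of -1.96 ± 0.79. Cd2 was at 10.9 to 203 CPM in the other 6 E2a-/- lines, 3.68 to 13.5 CPM in DKO and 0.496 CPM in SKO132. Ctnnd1, which encodes the cadherin partner p120-catenin, was chosen once its values were known. It stood at 74.1 to 159 CPM in every DKO line and 120 CPM in SKO132. Among the other E2a-/- lines it was on in SKO137.1, SKO156.6 and SKO186.5 (49.4, 193 and 241 CPM) and at most 1.24 CPM in SKO115.2, SKO163.5 and SKO95. The list of ADAM metalloproteases and their TIMP inhibitors had 12 listed genes, with Adamts10 (-0.34 ± 0.09) and Adam15 (-1.51 ± 0.58) lower in DKO at an unadjusted p under 0.05, and of the 13 listed ankyrin-SAM, ephrin and Eph receptor genes 0 reached that level.

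**Figure D4:**
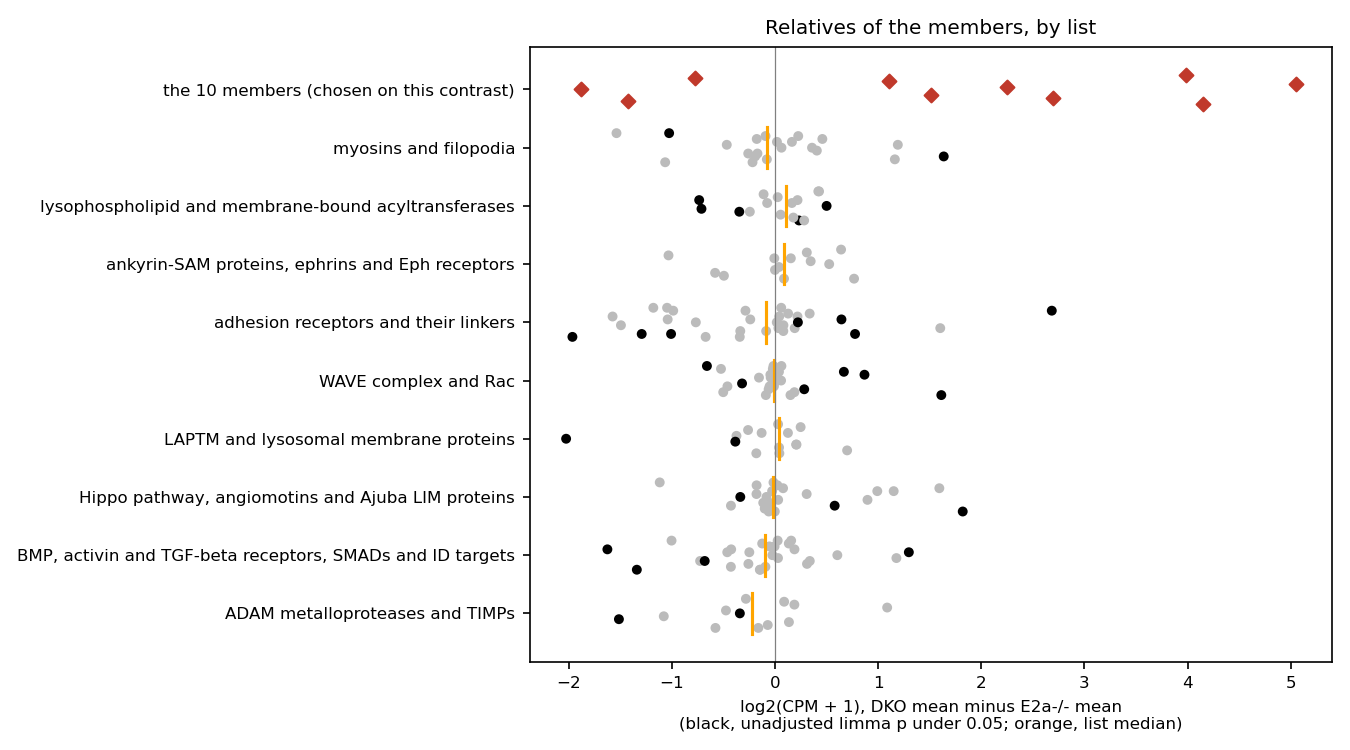
Difference in log2(CPM + 1), DKO mean minus E2a-/- mean, for each of the 184 listed relatives by list (points, black at an unadjusted limma p under 0.05, with the list median in orange) and for the 10 members (diamonds, chosen on this contrast). The list medians lie between -0.22 and 0.11, and the median of all relatives is -0.01.

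The genes next to the members on the chromosome, the nearest 2 listed genes on each side, also played no part in the choice. Their distance to the member had a median of 118 kb and reached 5014 kb (beside Amot), so some are not close by. Of these 40 genes 0 differed at an adjusted p under 0.01 (limma) and 8 had an unadjusted p under 0.05 (20%), 5 higher and 3 lower in DKO, against 10.2% of all genes. Their median absolute log2 difference was 0.21, and that of all genes 0.16. Basp1, 209 kb before Myo10 on the opposite strand, differed most. It encodes a protein of the inner face of the plasma membrane that binds phosphoinositides and organises actin. Its lowest and highest levels were 0.483 and 239.8 CPM in DKO, and it did not exceed 0.269 CPM in any E2a-/- line, with no read in SKO132. The highest DKO line was DKO170.2, and DKO713 and DKO79.9 were under 1 CPM. The difference was 3.84 ± 0.85 (SE) on the log2 scale with a limma adjusted p of 0.0915. On recovered reads the adjusted p was 1.4e-06 by the edgeR likelihood ratio test, 5.9e-14 by DESeq2 and 0.0369 by the edgeR quasi-likelihood test. Retreg1, on the other side of Myo10, was at no more than 2.90 CPM in any line.

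Matn2, 22.4 kb after Laptm4b, encodes an extracellular matrix protein and was at 7.62 to 77.1 CPM in DKO, 0 to 28.9 CPM in the other 6 E2a-/- lines and 32.3 CPM in SKO132, a difference of 2.37 ± 0.78 (SE, limma adjusted p = 0.284). On the other side of Laptm4b, Mtdh was at 329 ± 78.1 CPM in DKO (n = 8) and 329 ± 34.8 CPM in E2a-/- (n = 7). The second genes on either side of Laptm4b had an unadjusted p under 0.05, Cpq with a difference of -2.32 ± 0.96, opposite in direction to Laptm4b, and Rpl30 with one of 0.48 ± 0.16. Cpq, Rpl30 and Bccip were named with their values known. Upp2, next to Acvr1, had a difference of 0.66 ± 0.22, and L1cam, which overlaps Arhgap4, one of -0.80 ± 0.28. The listed gene nearest on each side of Cyfip1 was close by, with differences of -0.09 ± 0.12 for Tubgcp5 (10.3 kb away) and -0.12 ± 0.11 for Nipa2 (0.587 kb away). The listed gene nearest on each side of Ajuba, Mboat2, Adam12 and Anks1b had an unadjusted p over 0.05, while Id2, the second gene after Mboat2 (-1.34 ± 0.59), and Bccip, the second before Adam12 (0.23 ± 0.09), were under it.

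**Figure D5:**
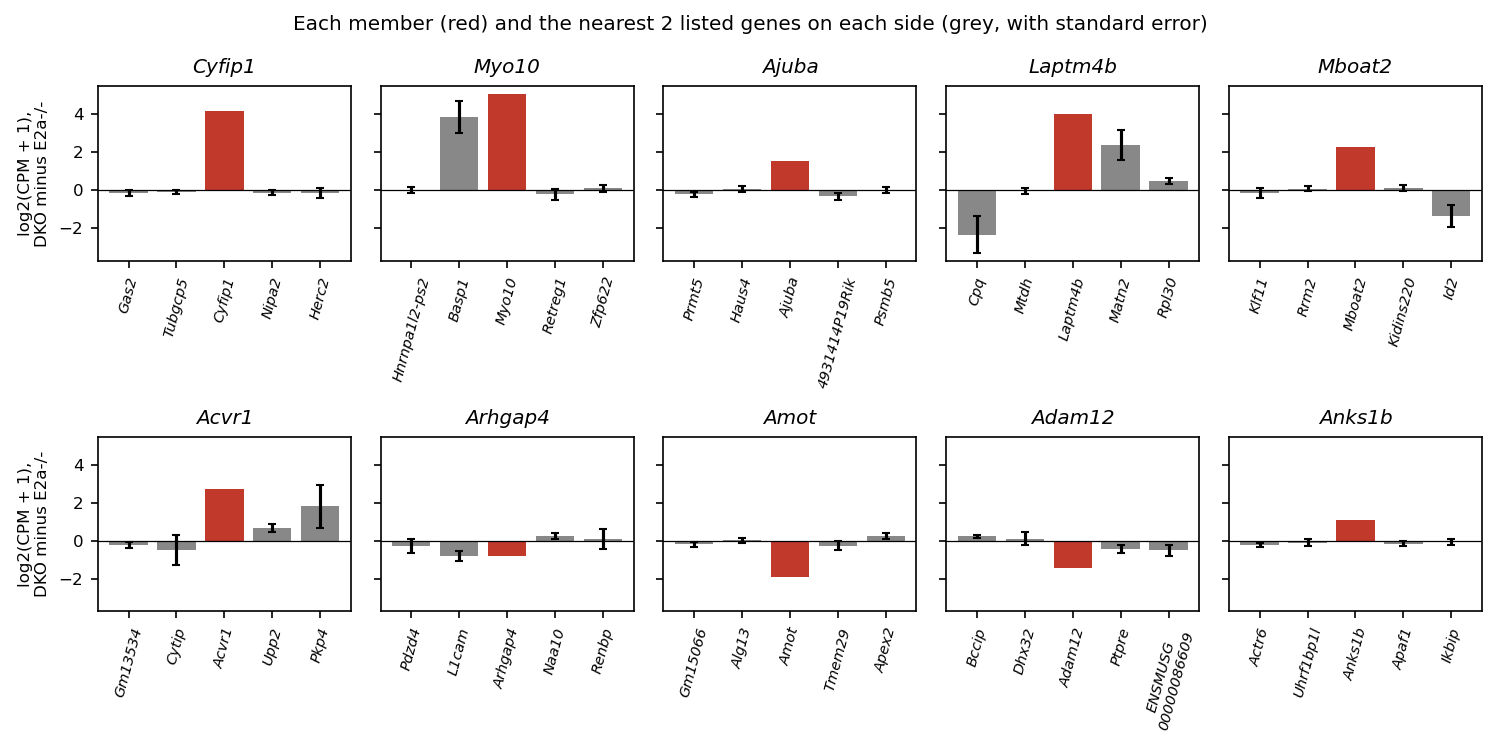
Difference in log2(CPM + 1), DKO mean minus E2a-/- mean, for each member (red bars) and the 2 listed genes nearest to it on each side (grey bars, with the standard error). Basp1 before Myo10 (3.84) and Matn2 after Laptm4b (2.37) are the highest of the 40 neighbours, while Tubgcp5 and Nipa2 beside Cyfip1 lie at -0.09 and -0.12.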

How the data were processed

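RNA of 15 T cell leukemia lines was sequenced, 1 library per line, and the groups are the genotypes in the labels. Per the labels and the study's methods, the authors trimmed the reads with Trimmomatic 0.33, aligned them to mm10 with TopHat 2.1.0, counted them per gene with HTSeq 0.6.1 (Ensembl release 78) and deposited edgeR CPM values (reads per 1000000 assigned reads) for 12545 genes. Strandedness and the rule that left genes out are not given in the sources used here. The deposited CPM were whole multiples of the value of 1 read for 100% of values in each line (tolerance 0.01 read), so reads were recovered. The table also lists a width per gene, which was not used, and lengths are exon unions of GENCODE M21. Listed gene starts lie within 1 bp of that annotation for 190 of 12172 matched genes, so the listed positions belong to another assembly and were used for order and distance alone.

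The main test was limma 3.58.1 (R 4.3.3) on log2(CPM + 1) with a variance trend, two-sided, with Benjamini-Hochberg adjustment over all genes and a threshold of 0.01. The Lef1 model had genotype and a slope on log2(Lef1 CPM + 1) in each genotype, with a residual variance shared by both genotypes. Code was tested on simulated data. Alternatives were the pseudocount (0.1, 2), scaling, single lines left out or averaged, a filter at a mean of 1 CPM, the variance trend, the threshold, and edgeR 4.0.16 and DESeq2 1.42.0 on recovered reads. No filter was applied in the main test, and 9 of the 10 members have a mean of at least 1 CPM. Members and lists (9 of relatives, with markers and neighbours) were chosen with earlier results of these data known. A further list of relatives is not reported here. The text names the members, Lef1, up to 3 relatives per list by smallest p at an unadjusted p under 0.05, nearest neighbours, and the 1 gene of at least 5 CPM most like each member. Smad1, Notch1, Itgae and Ctnnd1 and the paralogs were added with their values known.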

Additional observations from a re-analysis of the deposited data

Results flagged for a closer look

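A sample was singled out where its gap to the next sample of its genotype, relative to the range of that genotype, exceeded Dixon's 95% limit. Of 21 groups tested (the members and Lef1 in each genotype, without Anks1b in E2a-/-, where every line was at 0), 9 held such a line. Chance gives about 1 in 20 groups for independent, normally distributed values, while CPM are skewed and 6 of the 9 are the same line, SKO132, so the number is not read against that rate. SKO132 was the line in 5 of the E2a-/- groups where higher values were found in DKO: Cyfip1 (161 CPM, next line 6.31), Ajuba (16.8, next 7.03), Laptm4b (135, next 8.23), Mboat2 (13.2, next 2.12) and Acvr1 (23.7, next 4.76). It was also the line for Adam12, which was lower in DKO (58.2 CPM, next line 2.56). SKO163.5 was highest for Myo10 among the E2a-/- lines (33.3 CPM, next 14.1). DKO170.2 was highest for Laptm4b among the DKO lines (256 CPM, next 122). DKOTu3 was singled out for Amot by 1 read (0.0526 CPM) against 0 in the other DKO lines.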

How the results depend on the processing

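The number of genes that differed between the genotypes was 6 in the main test, 17 without SKO132, 10 without DKO79.9, 19 at an adjusted p under 0.05, 1 by the edgeR quasi-likelihood test, 84 by the edgeR likelihood ratio test and 177 by DESeq2. For the relatives it was 0, and 1 and 3 by the likelihood ratio test and DESeq2. For the neighbours it was 0, and 1 by each of those tests. Genes with a slope on Lef1 in the E2a-/- lines numbered 183, and 108 with a pseudocount of 0.1, 482 at an adjusted p under 0.05 and 1 without SKO132. Members whose genotypes did not overlap numbered 1, and 6 without SKO132 and 2 without DKO79.9. Of 70 recomputed log2 differences of members, 66 moved by less than the spread between lines and 4 moved by more, each with a pseudocount of 0.1: Mboat2 (3.82), Amot (-3.50), Adam12 (-2.92) and Anks1b (3.13). No direction turned. No member had an on-off pattern under any alternative run. No paired analysis was possible because line numbers are not shared between the genotypes and replicate numbers follow accession order. Depth limits Anks1b, Amot and Adam12, whose low levels in several lines rest on a few reads, most of all in DKO79.9 (3 reads are 0.618 CPM).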

Other observations

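For each member, the gene of at least 5 CPM with the highest Pearson r of log2(CPM + 1) over the 15 lines is given as a description, since the lines share genotypes and SKO132. Tbx21, which encodes the T cell factor T-bet, was nearest to both Cyfip1 (r = 0.932) and Ajuba (r = 0.931), at 7.71 to 11.6 CPM in DKO, at most 2.28 CPM in the other 6 E2a-/- lines and 7.94 CPM in SKO132. Myo10 was nearest to Dip2c (r = 0.909), although Dip2c was at 60.2 CPM in SKO132, inside its DKO range of 20.1 to 75.02 CPM. Laptm4b was nearest to the retinoid X receptor gene Rxra (r = 0.863), Acvr1 to the phosphatase gene Ppm1l (r = 0.902), Mboat2 to ENSMUSG00000067480 (r = 0.869) and Arhgap4 to the adaptor gene Sh2b1 (r = 0.883).

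Among the low members, Amot was nearest to Rgs13 (r = 0.815), a regulator of G-protein signalling that was at 70.6 CPM in SKO156.6 and 58.0 CPM in SKO186.5, the same lines that held most Amot, and at 3.81 CPM in SKO132. Adam12 was nearest to Ak4 (r = 0.967), an adenylate kinase gene at 146 CPM in SKO132 and at most 2.70 CPM in any other line, so this likeness rests on SKO132. Anks1b was nearest to Stra6l (r = 0.889), at 150 CPM in DKO713, the DKO line with the most Anks1b (4.69 CPM).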
